A study of Bos taurus and Mus musculus with 16 samples.

Results

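Nuclear receptors are transcription factors that bind DNA through a pair of zinc fingers, and many are switched by small lipid-soluble ligands. This account covers 9 of them, 4 retinoid receptors (Rara, Rarg, Rxra, Rxrb) and 5 receptors with known roles in early embryos or embryonic stem cells (Esrrb, Nr5a2, Nr6a1, Nr2c1, Nr2c2). They were found by symbol, with letter case ignored, in gene tables of mouse morulae (9 listed, of 16655 genes) and bovine blastocysts (8 listed, of 14852 genes). RARG was not analysed in cattle here. The group was selected on the mouse levels of Rarg, which were higher in edited morulae, so values from the mouse comparison are given for the 9 genes as a description. No p is printed for them there, and their calls are counted only beside the share of all genes called. The bovine comparison was not used in the choice and is tested.

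The 16 samples are RNA-seq libraries of preimplantation embryos. All embryos had been injected as zygotes with mRNA encoding BE3, which joins a cytidine deaminase to a Cas9 nickase and edits cytosines. Controls received BE3 mRNA alone, and edited embryos also received a mixture of guide RNAs against Tead4 (mouse) or TEAD4 (cattle), so presence of guides and loss of TEAD4 go together and cannot be told apart. Mouse morulae were taken 3.25 days after fertilization (2 control, 2 edited samples) and bovine blastocysts 7.0 days after fertilization (6 control, 6 edited samples). The sources used here do not give the strain, the number of embryos per sample or whether injections were separate. Errors and p-values therefore measure only how far these samples differ, which may be technical.

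Retinoic acid receptors (RARs) bind DNA as heterodimers with retinoid X receptors (RXRs), repress target genes through corepressors when no ligand is bound, and activate them when all-trans retinoic acid is present. RXRs are also the partner of many other receptors, among them the liver X and peroxisome proliferator receptors. Esrrb and Nr5a2 act without a classical hormone and belong to the transcription factor network of naive pluripotent cells, where Nr5a2 can bind regulatory DNA of Pou5f1. Nr6a1, also called germ cell nuclear factor, represses Pou5f1 as embryos differentiate, and Nr2c1 and Nr2c2 (TR2 and TR4) are repressors best known from embryonic globin genes.

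The P box, which lies at the end of the first zinc finger, is a part of the protein that reads the hexamer of the DNA site. The coding strand of the first finger is shown for 5 of the genes, among them the 2 whose P box differs in amino acids from the rest. Each run has 69 bases (23 codons), 5′ to 3′, from the reference transcripts of GENCODE M21 (GRCm38), and capitals mark the 6 codons of the P box.
Rarg: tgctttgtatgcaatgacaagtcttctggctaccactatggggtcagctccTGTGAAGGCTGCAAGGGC
Rara: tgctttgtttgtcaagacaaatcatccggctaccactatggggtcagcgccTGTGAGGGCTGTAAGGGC
Nr6a1: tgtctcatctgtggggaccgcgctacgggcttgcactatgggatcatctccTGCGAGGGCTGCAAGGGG
Esrrb: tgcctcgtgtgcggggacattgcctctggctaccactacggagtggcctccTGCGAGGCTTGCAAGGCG
Nr5a2: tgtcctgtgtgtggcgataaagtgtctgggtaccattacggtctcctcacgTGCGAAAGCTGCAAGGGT
The Rarg stretch lies at chr15:102241197-102241901 on the minus strand, and the Rara stretch at chr11:98966430-98968047 on the plus strand, each interrupted by an intron. The Nr6a1 stretch lies within 1 exon at chr2:38760326-38760394 on the minus strand, and the Esrrb stretch within 1 exon at chr12:86470465-86470533 on the plus strand. The Nr5a2 stretch lies at chr1:136943426-136945024 on the minus strand, again with an intron inside. Over the 69 bases Rarg and Rara were identical at 59, while Rarg shared 42 to 48 bases with the other 7 receptors. The capitals encode the same amino acids in 7 of the 9 receptors and different ones in 2, Esrrb and Nr5a2. The DNA sites that the receptors bind were not compared, and the P box alone does not set them.

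Depth and sample identity were as follows. The mouse libraries held 3642907 to 6109425 reads assigned to genes and the bovine libraries 817329 to 2501592. Tead4 stood at 458 and 519 normalized reads in the mouse controls, against 57.2 and 76.5 in the edited morulae. In cattle TEAD4 stood at 61.2 to 125 (median 92.9) in controls and 22.6 to 65.6 (median 37.5) in edited samples, or -1.25 ± 0.25 in log2 fold change (SE, 6 samples each, limma adjusted p = 0.235, DESeq2 adjusted p = 0.0066). Summed markers of trophectoderm, the outer epithelium, were all listed in mouse (8 of 8), at 7551 to 8560 in control and 2067 to 2291 in edited morulae, while the 6 of 6 listed markers of inner cell mass and epiblast summed to 2228 to 2583 and 2612 to 3352. The 4 of 4 listed primitive endoderm markers summed to 1600.2 to 1706 in control and 1342 to 1412 in edited morulae, and in cattle (3 of 4 listed) to 365 to 631 and 369 to 563. In cattle the ranges of the 2 groups overlapped for both lists, at 11719 to 22491 and 9250 to 22225 for trophectoderm (7 of 8 listed), and 331 to 620.2 and 308 to 617 for inner cell mass (5 of 6 listed). Summed markers of other cells were low in mouse, with each edited range above the control range. They spanned 8.85 to 14.5 in control and 14.9 to 30.5 in edited samples for cumulus and granulosa cells (2 of 8 listed), 2.53 to 14.5 and 16.3 to 45.8 for blood cells (3 of 8), and 29.1 to 37.9 and 57.4 to 70.6 for oocytes (4 of 6). No sperm marker of 5 was listed in mouse. The part of these marker differences in the mouse results was not tested.

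Rarg, the retinoic acid receptor gamma gene (chromosome 15, 102234938 to 102257517, minus strand, GRCm38), was the member that differed most among those above the filter on low values. Its level was 57.0 and 37.9 normalized reads in the control morulae, resting on 51 and 30 reads. In the edited morulae it was 339 and 144, resting on 356 and 203 reads. Both edited samples lay above both controls, and the edited samples were further apart than the controls. The means were 47.5 ± 13.5 and 242 ± 138 (SD, n = 2 per group), a ratio of 5.09, and the limma log2 fold change was 2.22 ± 0.34 (SE) on the log2(value + 1) scale. Removing edited library 1 gave 1.61, and removing edited library 2 gave 2.84. Of 11386 tested mouse genes 107 had a larger log2 fold change, and of the 4547 genes with a mean at least as high as that of Rarg, 6 did. Since the group was selected on Rarg in this comparison, a high rank was built in and is a description only. The mean used there includes the edited samples, which raise it. In bulk samples a change in the number of cells of a type and a change in RNA per cell cannot be told apart, here and below.

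Rara, the retinoic acid receptor alpha gene (chromosome 11, 98927818 to 98974942, plus strand), was close to the limit of detection in control morulae. It had 0 and 2 reads in the controls and 27 and 14 reads in the edited samples, or 0 and 2.53 against 25.7 and 9.92 normalized reads. The edited samples were again both higher, with library 1 above library 2 as for Rarg. From the summed reads, scaled for depth, edited over control was 14.05 (PCR copies included). This ratio rests on 2 control and 41 edited reads and is a description only. Its mean of 9.55 kept it below the filter of 10, so it was not among the genes tested in that fit. Rarb, the third RAR gene and itself a known retinoic acid target, is no member and had 48.1 and 17.7 normalized reads in control morulae and 65.8 and 43.2 in edited ones, where the groups overlapped.

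The RXR genes did not share that pattern. Rxra (chromosome 2, 27676440 to 27762957, plus strand) was measured at 253 and 201.1 normalized reads without guides and 306 and 189 with them, so the groups overlapped (log2 fold change 0.092 ± 0.25). Rxrb (chromosome 17, 34031812 to 34038399, plus strand) gave 134 and 140.4 normalized reads in control morulae and 110 and 87.2 in edited ones. Both edited values of Rxrb were below both controls, at 71.7% of the control mean (log2 fold change -0.48 ± 0.27).

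**Figure D1:**
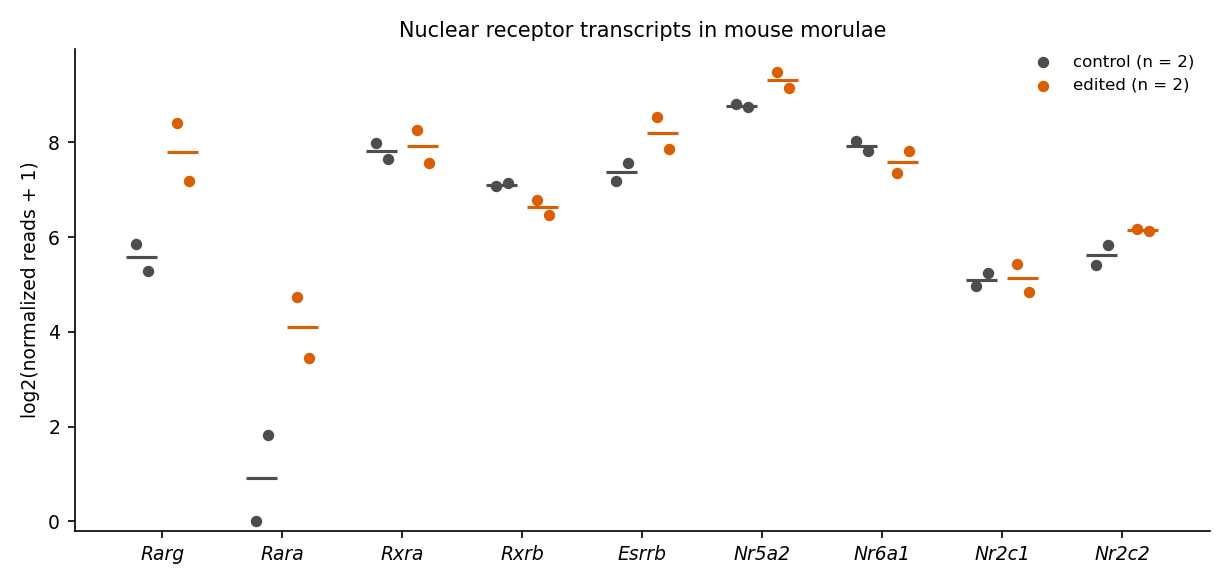
Levels of the 9 receptor genes in mouse morulae, as log2(normalized reads + 1), with 1 point per sample (2 control, 2 edited, replicate 1 left of replicate 2) and a line at each group mean on that scale. The 2 edited points lie above both controls for Rarg, Rara, Esrrb, Nr5a2 and Nr2c2, and below both for Rxrb and Nr6a1. For Rxra and Nr2c1, 1 edited point lies above both controls and 1 below both. Of all tested mouse genes, 28.6% had both edited values above both controls and 29.2% had both below.

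Divided by the length of the longest protein-coding transcript, levels can be set beside each other between genes. In control morulae Nr5a2 was highest, at 92.2 ± 3.10 normalized reads per kb (SD, n = 2). Rxrb (52.2 ± 1.70), Rxra (46.2 ± 7.41), Esrrb (38.5 ± 7.08) and Nr6a1 (38.3 ± 3.67) followed, and each neighbouring pair in this run of 4 overlapped between samples. Rarg (16.1 ± 4.56) came sixth, above Nr2c1 (8.96 ± 1.23), Nr2c2 (6.34 ± 1.32) and Rara (0.374 ± 0.529). The place of Nr2c2 is less certain, because its exons overlap those of Mrps25 on the opposite strand. In edited morulae Nr5a2 was still highest (136 ± 23.4), and Rarg was second in mean (81.8 ± 46.8), although its samples, at 115 and 48.7 per kb, spanned those of Esrrb (86.7 and 54.1).

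The balance of the heterodimer partners, summed per kb over the 3 RAR and the 3 RXR genes, therefore differed between groups. RAR transcripts summed to 34.8 and 19.3 per kb in control and to 144 and 65.6 in edited samples. RXR transcripts summed to 104 and 96.2 in control and to 109 and 73.3 in edited samples. The ratio of RAR to RXR was 0.336 and 0.200 in control and 1.32 and 0.894 in edited morulae. Within the RAR sum, Rarg made up 55.5% and 66.6% in control and 80.0% and 74.3% in edited samples, and Rara 0% and 3.87% against 5.29% and 4.47%. These transcript ratios follow mostly from the Rarg values that selected the gene group, and say nothing of protein.

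**Figure D2:**
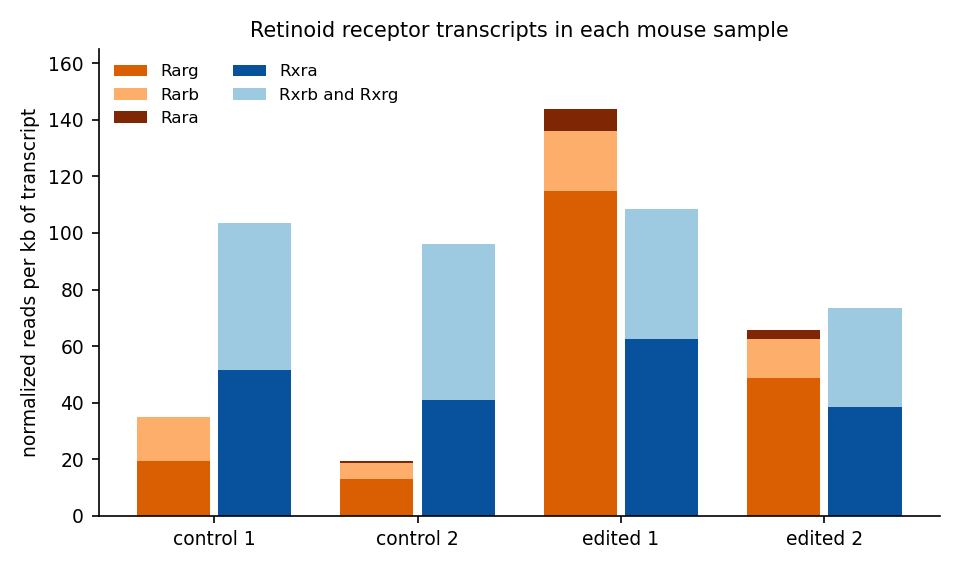
Stacked bars of RAR genes (orange shades) and RXR genes (blue shades) in each of the 4 mouse samples, in normalized reads per kb of the longest protein-coding transcript. The orange bars reach 34.8 and 19.3 in control and 144 and 65.6 in edited samples, while the blue bars lie between 73.3 and 109 in the 4 samples.

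Of the orphan receptors, Esrrb, Nr5a2 and Nr2c2 had both edited values above both controls, as had 28.6% of all tested mouse genes. Esrrb (chromosome 12, 86361117 to 86521628, plus strand), an estrogen-related receptor of naive pluripotent and trophoblast stem cells, had 144 and 187 normalized reads in control morulae and 373 and 232 in edited ones. Both edited values exceeded both controls, at 183% of the control mean (log2 fold change 0.84 ± 0.25). Removing edited library 1 gave 0.50, and removing edited library 2 gave 1.18. Nr5a2 (chromosome 1, 136842571 to 136960448, minus strand), also called LRH-1, had 447 and 426 without guides and 720 and 563 with them. The groups did not overlap, and the edited mean was 147% of control (log2 fold change 0.54 ± 0.20).

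The 3 repressors among the members did not share a direction. Nr6a1 (chromosome 2, 38723370 to 38927688, minus strand) had 259 and 226.4 normalized reads in control morulae and 162 and 224.7 in edited ones, with the second edited value just under the lower control (log2 fold change -0.34 ± 0.24). Nr2c1 (chromosome 10, 94148023 to 94197211, plus strand) stood at 30.2 and 36.7 against 42.0 and 27.6, with overlapping groups (0.033 ± 0.43). Nr2c2 (chromosome 6, 92091390 to 92174294, plus strand) stood at 41.3 and 55.7 against 71.5 and 69.5 (0.55 ± 0.35), with groups that did not overlap. Exons of Nr2c2 overlap those of Mrps25 on the opposite strand by 4590 bases, and with the strand setting not given reads of the 2 genes cannot be told apart there.

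By the limma threshold, a Benjamini-Hochberg adjusted p under 0.05 over all tested genes, 2 of the 8 members above the filter were called higher (Rarg and Esrrb), beside 6.92% of all tested genes. None of the 8 was called lower by limma, edgeR or DESeq2, beside 8.38% of all genes, and 0 of the lower ones had an unadjusted limma p under 0.05. The groups did not overlap with edited higher in 4 of the 8, beside 28.6% of all genes, and with edited lower in 2, beside 29.2% (57.8% in either direction). Since the mouse comparison chose the group, nothing is read from these counts. The call of Esrrb was lost when either control library or edited library 1 was removed. The number called higher was 4 when samples were scaled to the same total, with Nr5a2 and Rara added. Rara entered that fit because its mean then passed the filter, through the edited samples. Among the other alternatives that kept all libraries, edgeR and the filter at a mean of 50 also called Nr5a2, and the rest did not. For 8 of the 9 genes edited library 1 stood above edited library 2, by 2.59 times for Rara, 2.36 for Rarg and 1.60 for Esrrb, the exception being Nr6a1 at 0.721. The share of all tested genes with library 1 above library 2 was not computed, so nothing is read from this count. Tead4 was lower in edited library 1, at 0.747 times library 2, and a relation between its level and the receptors was not tested.

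In bovine blastocysts none of the receptors passed. Of the 8 genes listed there, 5 had a mean of at least 10 normalized reads, and limma called 0 of these 5 (adjusted p 0.793 to 0.933), with 0 at an unadjusted p under 0.05 and 0 by edgeR and by DESeq2. Of all 8884 tested bovine genes limma called 0.0113%, which is 1 gene, and DESeq2 0.0563%, so that a call was rare for any gene. In all 5 genes the ranges of the 2 groups overlapped, while 0.248% of tested genes had groups that did not (0.09% with edited higher, 0.158% with edited lower). Exact two-sided permutation tests over samples gave p of 0.199 to 0.677 for the 8 genes, and 0.677 for each when adjusted over the 8.

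ESRRB had the largest difference of the 5 tested receptors, with 45 to 494 reads per sample. It stood at 65.6 to 189 normalized reads in control (median 139) and at 115 to 283 in edited blastocysts (median 164). Of the 6 edited samples 5 exceeded the control median, and the groups overlapped. Its log2 fold change was 0.42 ± 0.26 (SE, 6 samples each), with a 95% interval of -0.12 to 0.96 that spans folds of 0.922 to 1.94 (limma adjusted p = 0.793, exact permutation p = 0.199). Leaving out 1 library at a time gave 0.22 to 0.55.

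The retinoid receptors were thinly covered in cattle. RXRB stood at 8.75 to 36.5 normalized reads in control (median 12.8) and at 7.13 to 22.1 in edited samples (median 11.3), with a log2 fold change of -0.30 ± 0.38 and a 95% interval of -1.08 to 0.49. RARA (4.62 to 18.8, median 7.70, against 1.85 to 9.90, median 6.76) rested on 1 to 17 reads per sample. RXRA (1.31 to 7.74, median 1.64, against 0 to 4.54, median 1.93) rested on 0 to 7 reads per sample, and 3 reads correspond to 1.71 to 5.56 normalized reads. Fitted without the filter, RXRA had a log2 fold change of -0.30 ± 0.51 with a 95% interval of -1.36 to 0.75. RARB, which is no member, was listed with 5.53 to 31.5 normalized reads in control and 8.03 to 75.2 in edited samples (log2 fold change 0.21 ± 0.51, limma adjusted p = 0.944), and its sign turned to -0.27 without edited library 5.

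The other early-embryo receptors overlapped between bovine groups too. NR5A2, the member with the highest level per kb in mouse, was listed at 0 to 9.70 normalized reads in control (median 6.39) and 3.24 to 12.6 in edited samples (median 6.46), from 0 to 22 reads per sample. NR6A1 stood at 22.0 to 91.8 in control (median 31.9) and at 16.6 to 55.6 in edited samples (median 34.3). Its log2 fold change was -0.20 ± 0.35 with a 95% interval of -0.93 to 0.53, and it was 0.059 without control library 6, the sample at 91.8. NR2C1 stood at 26.5 to 54.2 in control (median 48.2) and at 31.1 to 51.2 in edited samples (median 38.2), a log2 fold change of -0.10 ± 0.23 with an interval of -0.58 to 0.37. NR2C2 stood at 19.7 to 46.2 (median 35.0) and at 18.1 to 44.5 (median 29.5), a log2 fold change of -0.14 ± 0.27 with an interval of -0.69 to 0.42. For these 3 genes the bovine data leave room for any change within these intervals, and do not show that the groups were equal.

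**Figure D3:**
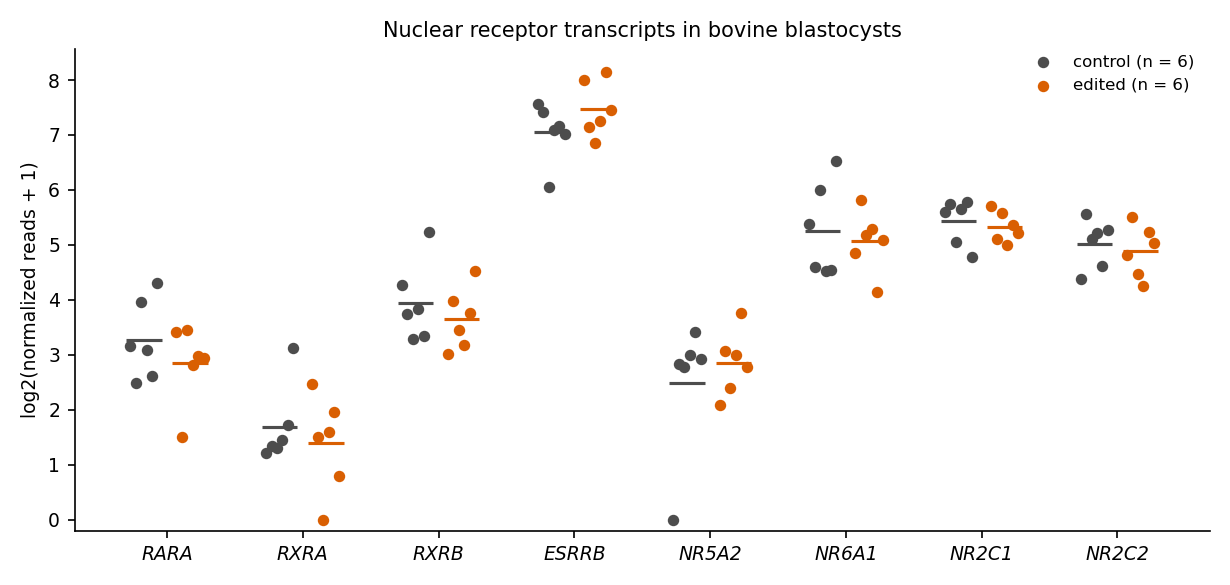
Levels of the 8 receptor genes listed in bovine blastocysts, as log2(normalized reads + 1), with 1 point per sample (6 control, 6 edited) and a line at each group mean on that scale. Control and edited points overlap for all 8 genes; the ESRRB medians are 139 and 164 normalized reads.

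The 5 members tested in both species are set side by side here, mouse first and cattle second. Log2 fold changes were 0.84 and 0.42 for Esrrb, -0.48 and -0.30 for Rxrb, and -0.34 and -0.20 for Nr6a1. They were 0.033 and -0.10 for Nr2c1, and 0.55 and -0.14 for Nr2c2. Fitted without the filter in cattle, Rxra had 0.092 and -0.30, and Nr5a2 0.54 and 0.36. RARA had -0.42 in cattle, while both edited values of Rara lay above both controls in mouse. The species differ in stage, depth and number of samples, each table was normalized on its own, and the difference between species was not tested.

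**Figure D4:**
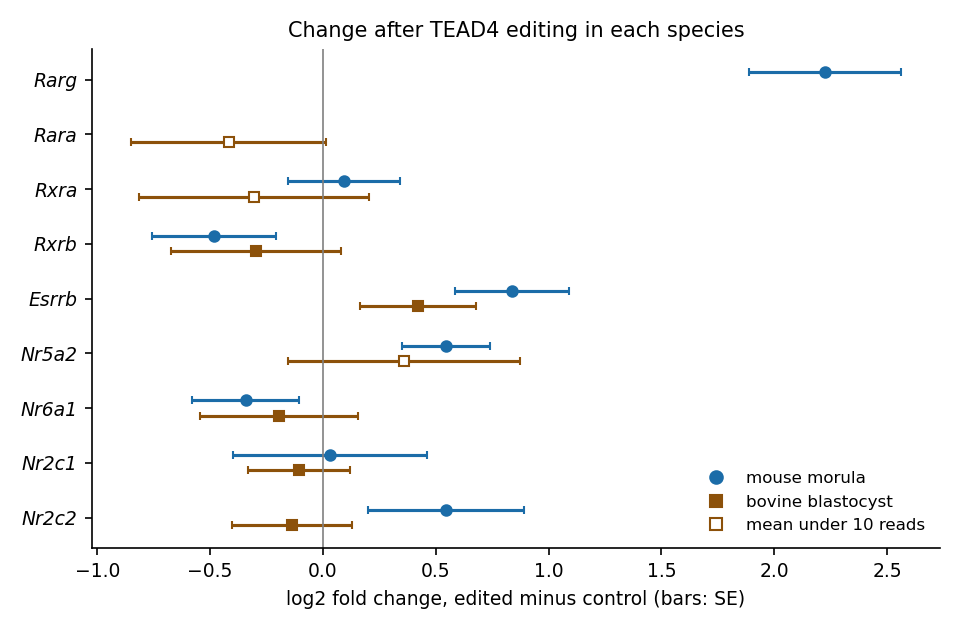
Limma log2 fold change, edited minus control, with its standard error as a bar, for mouse morulae (circles, n = 2 per group) and bovine blastocysts (squares, n = 6 per group). Open squares are bovine genes with a mean under 10 normalized reads, fitted without the filter; Rara in mouse is left out because its controls hold 2 reads, and Rarg in mouse, at 2.22, lies farthest from 0.

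The retinoid pathway around the receptors was followed with lists of genes. Of 28 genes for uptake, synthesis, binding and breakdown of retinoids, 15 were listed in mouse and 8 tested. At an unadjusted limma p under 0.05 there were 2, beside 28.6% of all tested genes. The median log2 fold change was 0.33, beside -0.0049 over all tested genes. Limma, edgeR and DESeq2 called 0 higher and 1 lower, where limma called 6.92% and 8.38% of all tested genes. The gene that fell was Lrp2, which encodes megalin, an endocytic receptor that takes up retinol-binding protein among many other ligands. It went from 1809 and 2162 normalized reads in control morulae to 26.7 and 19.8 in edited ones, 1.17% of the control mean (log2 fold change -6.36 ± 0.24, limma adjusted p = 9.85e-17). Rdh10, the retinol dehydrogenase gene of the first oxidation step, stood at 130 to 207 against 199 to 267 and did not pass (adjusted p = 0.214). Aldh1a2 and Aldh1a3, which make retinoic acid, and Cyp26b1, which degrades it, were all listed below the filter, and Cyp26a1 was not analysed here. Without edited library 2, 2 of these genes were called higher and 3 lower, and without control library 1 or with the replicate number as a block, 1 was called higher. In cattle 19 of the 28 were listed and 9 tested, and limma, edgeR and DESeq2 called 0, with 0 at an unadjusted p under 0.05 (limma). LRP2 stood at 677 to 1134 in bovine controls and at 515 to 1245 in edited blastocysts (log2 fold change 0.13 ± 0.20, limma adjusted p = 0.907).

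None of the tested genes known to respond to retinoic acid passed in mouse by limma with all libraries. Of 22 such genes 14 were listed and 6 tested. Limma called 0, edgeR 1 and DESeq2 0, beside 15.3%, 14.7% and 11.9% of all tested genes. At an unadjusted limma p under 0.05 there were 2, Foxa1 and Nrip1, beside 28.6% of all tested genes. The median log2 fold change was 0.40. Foxa1, a forkhead factor of endoderm, had 13.4 and 13.9 normalized reads in control morulae and 58.2 and 25.5 in edited ones (log2 fold change 1.43 ± 0.52, adjusted p = 0.0593 from limma and 0.048 from edgeR). Nrip1, a ligand-dependent corepressor, stood at 59.2 and 53.1 against 94.4 and 85.1 (0.67 ± 0.32, limma adjusted p = 0.167). When edited library 2 was left out 1 gene was called higher and 1 lower. In cattle 8 of 12 listed genes were tested, with a median of -0.21 beside 0.011 over all genes. There limma called 0, with 2 at an unadjusted p under 0.05, beside 5.88% of all tested genes. LAMA1, a laminin chain gene of basement membranes, stood at 20.01 to 39.3 normalized reads in control and at 2.30 to 18.4 in edited blastocysts, so that no edited sample reached a control. Its log2 fold change was -1.89 ± 0.39 (adjusted p = 0.259 from limma and 0.557 from edgeR), while DESeq2 called it lower (0.0405).

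Of the 40 nuclear receptor genes that are not members, 28 were listed in mouse and 14 tested. Limma called 2 higher and 0 lower, beside 6.92% and 8.38% of all tested genes, and edgeR and DESeq2 called 0 lower too. All 14 had a log2 fold change above 0 in the limma fit, with a median of 0.73. Over all tested genes with a mean of 10 to 100 normalized reads, a range that holds 13 of the 14, the median was 0.076 and 54.1% were above 0. Nr1h2 (liver X receptor beta, a sterol sensor and RXR partner) went from 408 and 430.0 to 821 and 745 normalized reads (log2 fold change 0.90 ± 0.19, limma adjusted p = 0.00173), which did not pass once control library 1 was removed (0.0595). Ppard, another RXR partner that responds to fatty acids, went from 33.5 and 27.8 to 85.8 and 64.5 (1.26 ± 0.37, limma adjusted p = 0.0216). The Ppard call was lost without control library 1, control library 2 or edited library 1 and with DESeq2, with adjusted p of 0.0606 to 0.154. In cattle 7 of 28 listed receptors were tested and limma, edgeR and DESeq2 called 0, with 0 at an unadjusted p under 0.05 (limma) and a median of 0.081. NR1H2 had a log2 fold change of 0.28 and PPARD one of -0.40 there.

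Coregulators, which receptors recruit to open or close chromatin, were the list with the most tested genes, with 30 of 34 tested in mouse. Of the 30 tested, 12 had an unadjusted limma p under 0.05, beside 28.6% of all tested genes, and the median was 0.24. Limma called 4 higher and 0 lower, beside 6.92% and 8.38% of all tested genes, and edgeR and DESeq2 called 0 lower. The protein arginine methyltransferase genes Carm1 and Prmt1, both coactivators of nuclear receptors, were among them. Carm1 rose from 49.2 and 58.2 to 146 and 133 normalized reads (log2 fold change 1.37 ± 0.30, limma adjusted p = 0.00257), which failed at 0.0529 once control library 1 was removed. Prmt1 rose from 41.3 and 62.0 to 363 and 98.5 (1.88 ± 0.39, limma adjusted p = 0.00166), a value that was 0.95 without edited library 1, where the call was lost, as it was with robust limma and DESeq2 (adjusted p 0.0913 to 0.110). Pprc1, a coactivator related to PGC-1, had a log2 fold change of 0.63 ± 0.20 (limma adjusted p = 0.0283) and the RNA helicase gene Ddx5 one of 0.52 ± 0.17 (0.0344). Neither of these 2 passed in 3 of the 4 fits with 1 library removed, where adjusted p reached 0.320 for Pprc1 and 0.377 for Ddx5. With the replicate number as a block Ddx5 did not pass either (adjusted p = 0.0549). Removing control library 1 left 1 coregulator called, and removing control library 2 left 2. In cattle limma, edgeR and DESeq2 called 0 of 29, with 5 at an unadjusted p under 0.05 (limma), beside 5.88% of all tested genes. There 22 of the 29 had a log2 fold change below 0, beside 48.5% of all tested genes, with a median of -0.15. When samples were scaled to the same total the median was -0.030, beside 0.13 over all tested genes. Signs also varied with level in cattle. Of all tested genes 47.4% were above 0 at a mean of 10 to 100 normalized reads, and 62.6% at 100 or more.

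The naive pluripotency network that includes Esrrb and Nr5a2 had genes called in both directions in mouse. Of 22 genes, all tested, limma called 4 higher and 2 lower, beside 6.92% and 8.38% of all tested genes. The share called lower was near that of all genes, and the median was -0.027. Pou5f1 (1.40 ± 0.19, limma adjusted p = 1.86e-05), Tdgf1 (1.35 ± 0.22, 0.000161), Klf2 (1.33 ± 0.25, 0.000644) and Tbx3 (0.70 ± 0.19, 0.0133) rose, but Tbx3 did not pass when control library 1 or edited library 1 was removed (adjusted p up to 0.284). Dppa3, a maternal factor that protects DNA methylation, fell from 30357 and 24594 normalized reads to 14090 and 12775 (-1.03 ± 0.16, limma adjusted p = 8.89e-05). Dppa5a, an RNA-binding protein gene of pluripotent cells, fell from 20256 and 16902 to 11059 and 11318 (-0.73 ± 0.16, limma adjusted p = 0.00242), which failed at 0.121 once control library 1 was removed. Removing control library 1 left 1 gene called lower, and removing edited library 2 gave 6. In cattle 15 were tested and limma, edgeR and DESeq2 called 0, with 0 at an unadjusted p under 0.05 (limma), and a median of -0.11.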

How the data were processed

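Libraries were made by Smart-seq2 from oligo(dT)-primed RNA, per the labels' protocols. Trimmomatic, HISAT2, featureCounts, DESeq2, mm10 and ARS-UCD1.2 are named in the submitters' processing notes. Annotation and strand setting are not given in the sources used here. The deposited signal values are per-gene normalized counts, per the file headers, and the authors' log2 fold changes, test statistic (a score) and p-values in the same deposited tables were not used. Each value was a whole multiple of that of 1 read (100% of values, tolerance 0.05 reads), which gave read totals. In bovine edited library 4, where 1 read is worth 1.003, 100% of nonzero values were whole at that step and 46.4% at a step of exactly 1.

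Each species was fitted alone with limma 3.58.1 (R 4.3.3, trend, log2(value + 1), edited minus control, two-sided, mean of at least 10, Benjamini-Hochberg over all tested genes, 11386 in mouse and 8884 in cattle). This scale understates changes of low genes. Genes below the filter were fitted without it. Alternatives were edgeR 4.0.16 and DESeq2 1.42.0 on recovered reads, other pseudocounts (0.5, 5), filters and scalings, robust limma, a replicate block and leaving out each library. The fits were tested on simulated data. Transcript lengths and positions are from GENCODE M21. Promoters were not analysed here.

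Members and gene lists were chosen with earlier results of these data known. Named genes were Tead4, the members and, per list and species, up to 4 called genes with the largest change. Tbx3, Dppa5a, Foxa1, Nrip1, LAMA1, Rarb, Rdh10, the Aldh1a and Cyp26 genes and the neighbours of Rarg were named after their values were seen. A search for genes most like RARG in cattle was planned and could not be made.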

Additional observations from a re-analysis of the deposited data

Results flagged for a closer look

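In 4 of 18 bovine groups of 6 samples (TEAD4 and the 8 listed receptors, in 2 groups each) 1 sample lay apart from the others by Dixon's 95% criterion on log2(value + 1), which chance gives in about 1 group in 20. RARA was at 1.85 normalized reads in edited library 2 (1 read). RXRA was at 7.74 in control library 6. NR5A2 was at 0 in control library 1, where the other controls were at 5.83 to 9.70. ESRRB was at 65.6 in control library 3, below the other controls. For the 3 former genes these samples hold 0 to 7 reads.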

How the results depend on the processing

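The mouse count of 1742 called genes (788 higher, 954 lower) ranged from 580 to 2588 when 1 library was left out (321 to 1074 higher, 247 to 1514 lower). Without control library 1 it was 580 and without control library 2 it was 601, and without edited library 2, 1514 genes were lower. Scaling to the same total moved the median of all genes to 0.12 in mouse and 0.13 in cattle, turned the mouse split to 1111 higher and 682 lower, and called 4 receptors higher in place of 2. Between 1 and 3 receptors were called higher when 1 library was left out, and Rara passed the filter only with the same total or without a control library. The bovine count of 1 called gene was 5 with DESeq2, all lower, and 1 in each of the 12 fits that left out 1 library, and none of the 5 tested receptors was called there under the 22 alternatives (limma, edgeR or DESeq2). Signs turned for bovine NR2C1 with the same total (0.014), bovine NR6A1 without control library 6 (-0.35 to 0.059 over the 12 fits that left out 1 library) and bovine RARB without edited library 5 (-0.27 to 0.47). Signs of 2 mouse receptors that no fit called turned as well. Removing edited library 1 gave -0.26 for Rxra (0.092 with all libraries) and -0.26 for Nr2c1 (0.033 with all libraries), removing control library 2 gave -0.072 for Rxra, and removing control library 1 gave -0.10 for Nr2c1. The replicate block gave 1816 mouse genes (838 higher, 978 lower) and 1 bovine gene. Same-numbered bovine samples did not deviate together (correlations -0.19 to 0.34) and 2 mouse pairs are too few to tell (0.11), so the numbers were not taken as pairs. The low depth in cattle limits what can be said of RARA, RXRA and NR5A2.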

Other observations

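The surroundings of Rarg in the mouse genome were described after its values were seen. Within 300 kb on either side of the gene, 22 annotated genes were tested, and limma called 2 higher and 2 lower, a share near the 15.3% called among all tested mouse genes, so the count says nothing particular of the region. The nearest tested neighbour, Itgb7, an integrin beta chain gene on the same strand 2.99 kb downstream of Rarg, was also called higher, with 71.5 and 70.8 normalized reads in control morulae and 215 and 142 in edited ones (log2 fold change 1.29, limma adjusted p = 0.00282). Its call held in each of the 4 fits that left out 1 library (adjusted p up to 0.0395). Map3k12, 240 kb upstream, went from 10.1 and 3.79 to 29.6 and 26.9 normalized reads (2.005, limma adjusted p = 0.0328), a call that held only without control library 1 among those 4 fits and was lost with DESeq2 (0.108). The keratin genes Krt18 and Krt8, 203 and 230 kb downstream, fell, with log2 fold changes of -3.79 and -1.74 (limma adjusted p = 4.67e-10 and 1.36e-07), and the Krt18 call was lost with robust limma (0.0552). The other 4 tested genes nearest to Rarg did not pass: Gm9918, 13.05 kb upstream (log2 fold change 1.58, limma adjusted p = 0.131), Zfp740, 19.3 kb downstream (0.82, 0.0593), Mfsd5, 21.9 kb upstream (-0.0074, 0.985), and Csad, 30.2 kb downstream (0.87, 0.0966).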
